A study of Homo sapiens with 9 samples.

Results

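The EYA, SIX-family and DACH genes were described here through 8 members, EYA1, EYA2, EYA3, EYA4, SIX2, SIX4, SIX5 and DACH1, in human embryonic stem cells (hESC) before and after 14 days of culture meant to yield progenitors of the inner ear. Members were found by name: every probe set whose platform annotation gives only 1 of these 8 genes was taken, which gave 20 of the 41091 probe sets with 1 gene symbol and 8 of 19775 genes. Where a gene had several, the one with the highest average over all 9 arrays is called its main probe set. The series holds 3 groups of 3 Affymetrix arrays, 1 each of the cell lines Shef3, H14 and Shef1. The FGF3+10 group spent 14 days on laminin in DFNB medium, which is DMEM:F12 supplemented with N2 and B27, to which FGF3 and FGF10 were added at 50 ng/ml each. The DFNB group spent 14 days in the same medium without FGFs. The hESC group was undifferentiated at day 0, on mouse embryonic fibroblast feeder cells in serum replacement medium with basic FGF at 4 ng/ml. The arrays of a group differ in cell line, so the spread within a group is that between these samples of different lines. Each p-value from a model without a term for cell line measures this spread. Models with such a term take differences in level between lines out of it. With 3 arrays a group, precision is limited by their number.

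EYA, SIX-family and DACH proteins work together with PAX factors in a network known from the fly eye and reused in the vertebrate sense organs, kidney and muscle. SIX-family proteins bind DNA through a homeodomain. EYA proteins do not bind DNA: they join SIX-family proteins as co-activators and are also protein phosphatases. DACH proteins are nuclear cofactors related to SKI and act mostly as co-repressors. In the vertebrate embryo EYA and SIX-family genes mark the preplacodal region, the strip of ectoderm around the anterior neural plate that gives rise to the lens, olfactory, otic and other cranial placodes. Several members are disease genes: EYA1 and SIX5 have been linked to branchio-oto-renal syndrome and EYA4 to inherited hearing loss.

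Of the 8 genes, 5 had a promoter in the RefSeq table used (GRCh38.p14). The 250 bases before the start are shown for SIX2, EYA4 and DACH1, which had higher values on every day 14 array than on any hESC array, and for SIX4, a relative of SIX2 whose values overlapped. Capitals mark matches on either strand to TCANGTTTC (a relaxed form of MEF3, the site bound by SIX-family proteins in muscle genes), CCAAT (the CCAAT box) and GGGCGG (the GC box).
SIX2, chr2:45009453-45009702, minus strand: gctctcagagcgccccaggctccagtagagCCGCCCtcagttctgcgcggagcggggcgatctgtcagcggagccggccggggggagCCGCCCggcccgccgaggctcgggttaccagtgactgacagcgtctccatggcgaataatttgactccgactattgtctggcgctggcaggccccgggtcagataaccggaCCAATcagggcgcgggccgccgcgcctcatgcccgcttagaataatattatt
EYA4, chr6:133241107-133241356, plus strand: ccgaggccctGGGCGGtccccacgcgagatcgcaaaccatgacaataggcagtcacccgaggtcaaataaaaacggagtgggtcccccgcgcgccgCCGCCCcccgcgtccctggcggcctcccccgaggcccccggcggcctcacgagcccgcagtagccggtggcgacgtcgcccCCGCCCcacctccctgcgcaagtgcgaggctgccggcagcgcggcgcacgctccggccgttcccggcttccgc
DACH1, chr13:71867205-71867454, minus strand: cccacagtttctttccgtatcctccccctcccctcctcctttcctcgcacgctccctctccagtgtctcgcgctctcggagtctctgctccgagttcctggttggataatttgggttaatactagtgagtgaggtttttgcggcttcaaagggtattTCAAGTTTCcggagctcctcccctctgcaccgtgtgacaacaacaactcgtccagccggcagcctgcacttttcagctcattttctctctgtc
SIX4, chr14:60724352-60724601, minus strand: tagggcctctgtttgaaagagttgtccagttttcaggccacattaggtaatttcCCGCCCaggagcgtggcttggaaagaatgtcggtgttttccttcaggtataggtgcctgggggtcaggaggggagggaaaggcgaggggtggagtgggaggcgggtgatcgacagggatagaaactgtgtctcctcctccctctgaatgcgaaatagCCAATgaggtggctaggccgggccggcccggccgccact

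The TCANGTTTC match lies 93 bases before the DACH1 start and reads TCAAGTTTC. Of all 35116 promoter windows of this length, 0.832% held such a match on either strand. Another form of MEF3, TCAGGTTNC, frees a different base, and some of its matches also match the first form. It was in 0.874% of all windows, and the SIX-family core TGATAC was in 3.80%. None of the 5 members' windows held either of these, or the TATA box TATAAA, which was in 10.7%. GGGCGG occurred 3 times in EYA4, 2 times in SIX2 and EYA3, 1 time in SIX4 and not in DACH1, against 42.6% of all windows with at least 1 match. CCAAT occurred 52 bases before the SIX2 start and 39 before that of SIX4, and was in 32.0% of all windows. The EYA4 window had 75.2% G and C with 36 CpG dinucleotides and that of SIX2 had 65.6% with 26, against medians of 58% and 11 over all windows. EYA3 had 62.4% with 20, DACH1 had 54% with 12, and SIX4 had 58% with 11.

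All values are on the log scale of the deposited table. The base of the logarithm is not stated in the sources used here, and log2 was assumed throughout. The authors set every array to the same median of 3.20, and the values have no lower limit and no detection calls. A value below 4 is called dim here, a mark kept from earlier work on these data. Spread was larger below it: the median SD within groups was 0.92 for genes averaging below 4, against 0.45 for those averaging 4 or more. Arrays correlated with each other at 0.901 to 0.977 across genes, which are not independent replicates. The poly-A control probe sets averaged up to 7.06 on the 3 Shef1 arrays, each above the other 6 arrays (4.39 to 5.14), so they differ with the cell line in every group. Levels are not compared between probe sets, since each has its own response.

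**Figure D1:**
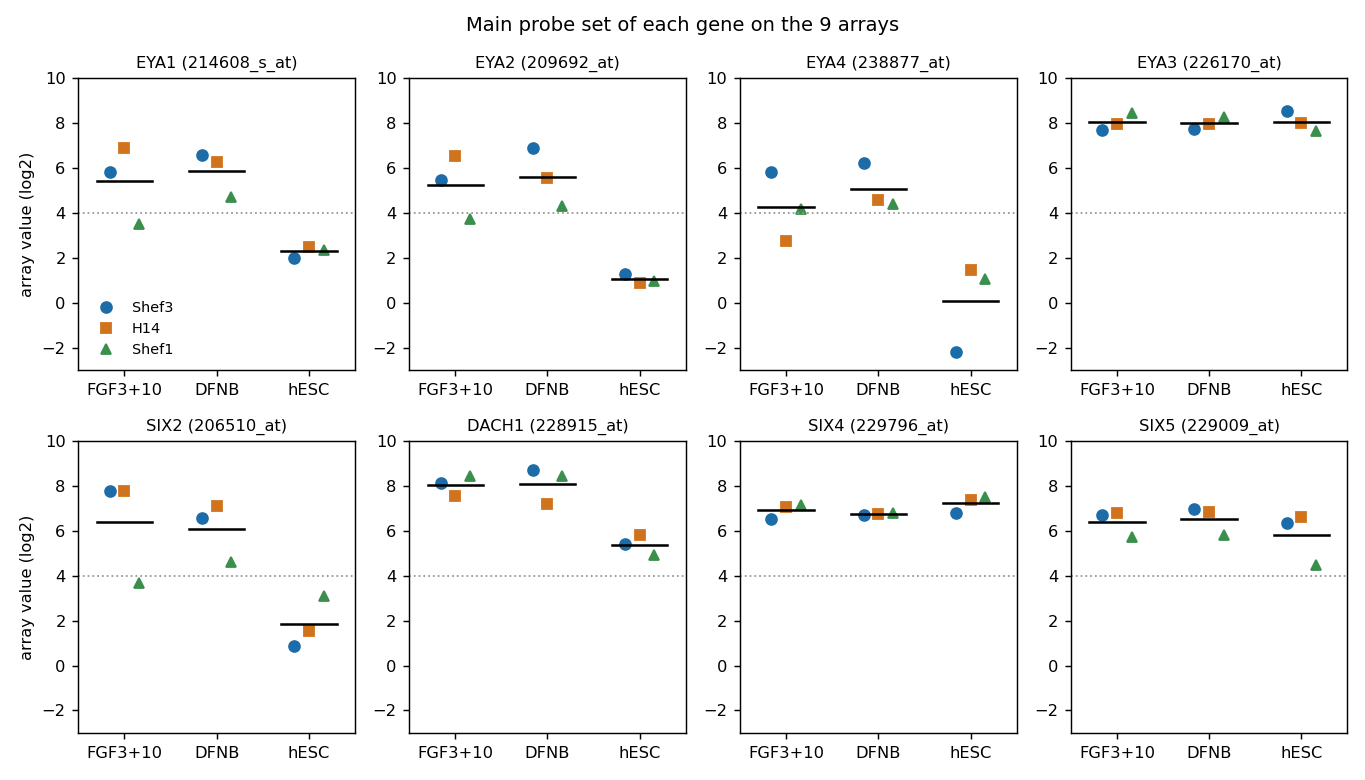
Value of the main probe set (y axis, log2) on each of the 9 arrays for the 8 genes, with the groups on the x axis, a symbol for each cell line and a bar at the group mean; the dotted line marks 4. In EYA1, EYA2, EYA4, SIX2 and DACH1 all 6 day 14 arrays lie above the 3 hESC arrays, while EYA3, SIX4 and SIX5 overlap.

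The main comparison asks which of these genes differ after 14 days, with both media pooled, from undifferentiated cells. EYA2 and DACH1 rose: they were the 2 of 8 genes that passed at an adjusted p below 0.05, against 1.4% of all genes called in either direction (277 of 19775) and 0.759% called higher. EYA1, EYA4 and SIX2 also read higher on every day 14 array than on any hESC array, with fitted log2 changes of 3.36 to 4.56, but did not pass. EYA3, SIX4 and SIX5 had changes between -0.38 and 0.67 and overlapping groups. So 5 of 8 members had groups that did not overlap, all higher at day 14, against 4.23% of all genes higher and 8.02% lower. The members were chosen with earlier results of these data known, so their counts beside all genes are a description and no independent test. The median log2 change was 3.02 over the 8 genes, against -0.19 over all genes, or -0.07 over all genes after quantile normalisation. With values below 4 set to 4, the median of the 8 was 1.17. In such mixed cultures, fewer cells of a type and less RNA per cell cannot be told apart.

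Among the EYA genes, EYA2, a co-activator found in the cranial placodes of the mouse, read 5.48, 6.56 and 3.76 in FGF3+10 cells and 6.92, 5.55 and 4.32 in DFNB cells, against 1.28, 0.89 and 0.97 in hESC, with the lines in the order Shef3, H14 and Shef1 here and below. The hESC arrays were all dim and close together, and the Shef1 arrays were the lowest at day 14 in both media. The log2 change at day 14 was 4.39 ± 0.69 (SE, n = 6 and 3 arrays; limma, adjusted p = 0.0311), higher in 3 of 3 lines. With values below 4 set to 4 it was 1.47 and the call was lost (adjusted p = 0.228); its 3 hESC values were all below 4. The call was also lost without the FGF3+10 array of Shef3 (adjusted p = 0.0647) or H14 (0.0519), the DFNB array of Shef3 (0.0642) or H14 (0.0643), or the hESC array of Shef3 (0.0943), H14 (0.116) or Shef1 (0.0850). It was lost too without all arrays of Shef3 (0.253), H14 (0.307) or Shef1 (0.0620), while the change stayed between 3.99 and 5.04 over all these fits.

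EYA1, which acts early in the otic placode of the mouse, read 5.85, 6.91 and 3.53 in FGF3+10 cells and 6.57, 6.29 and 4.73 in DFNB cells, against 1.99, 2.505 and 2.38 in hESC. Again the groups at day 14 lay above hESC, and Shef1 was the lowest line in both media. The log2 change was 3.36 ± 0.72 (adjusted p = 0.0634). With the cell line as replicate block it passed (adjusted p = 0.0363), where 3.09% of all genes were called, as it did without the FGF3+10 array of Shef1 (change 3.83, adjusted p = 0.0243), and with the floor of 4 it was 1.73 (adjusted p = 0.168).

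EYA4, a relative whose mutation causes hearing loss in people, read 5.83, 2.78 and 4.17 in FGF3+10 cells and 6.24, 4.58 and 4.39 in DFNB cells, against -2.19, 1.44 and 1.07 in hESC. The lowest day 14 value was that of H14 with FGF3 and FGF10, which stayed below 4. The log2 change was 4.56 ± 0.95 (adjusted p = 0.0601, and 0.0785 with the block), and 0.87 with the floor of 4 (adjusted p = 0.351). Its change in Shef3, 8.02 with FGFs and 8.43 without, was larger than in H14 or Shef1, and its hESC array had the lowest value, -2.19.

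EYA3, the most widely expressed member of its family, read 7.72, 7.97 and 8.45 in FGF3+10 cells and 7.75, 7.96 and 8.26 in DFNB cells, against 8.57, 8.02 and 7.64 in hESC. The group means of 8.05 ± 0.37, 7.99 ± 0.26 and 8.08 ± 0.47 (SD, n = 3 each) differed by less than the spread within groups. The log2 change was -0.06 ± 0.30 (adjusted p = 0.945), with a 95% interval of -0.75 to 0.63. After quantile normalisation its sign turned, at 0.09.

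Among the SIX-family genes, SIX2, a homeodomain factor that keeps nephron progenitors of the kidney undifferentiated, read 7.76, 7.77 and 3.69 in FGF3+10 cells and 6.56, 7.10 and 4.62 in DFNB cells, against 0.89, 1.56 and 3.099 in hESC. Shef3 and H14 lay far above their hESC arrays, whereas Shef1 had both the lowest day 14 values and the highest hESC value. The log2 change was 4.40 ± 1.02 (adjusted p = 0.0809), or 2.30 with the floor of 4 (adjusted p = 0.184). It passed without the 3 Shef1 arrays (change 6.07, adjusted p = 0.0237) and without the FGF3+10 array of Shef1 alone (5.08, adjusted p = 0.0308).

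SIX4, expressed in placodes and muscle of the mouse, read 6.55, 7.09 and 7.14 in FGF3+10 cells and 6.72, 6.77 and 6.82 in DFNB cells, against 6.79, 7.36 and 7.53 in hESC. Each day 14 value was lower than that of its own line in hESC, and the log2 change was -0.38 ± 0.27 (adjusted p = 0.488). SIX5, whose gene lies beside DMPK, the gene of myotonic dystrophy, read 6.69, 6.81 and 5.71 in FGF3+10 cells and 6.96, 6.85 and 5.83 in DFNB cells, against 6.35, 6.60 and 4.46 in hESC. Shef1 was the lowest line in every group, and each day 14 value exceeded that of its line in hESC. The log2 change was 0.67 ± 0.54 (adjusted p = 0.540). Without the hESC array of Shef1 alone, which leaves the 2 low day 14 arrays of that line unpaired, it was -0.0016, and without all 3 Shef1 arrays it was 0.35 (adjusted p = 0.450).

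DACH1, the co-repressor, read 8.14, 7.55 and 8.43 in FGF3+10 cells and 8.70, 7.19 and 8.43 in DFNB cells, against 5.42, 5.83 and 4.92 in hESC. None of its 9 values was dim, and H14 had the lowest value at day 14 and the highest in hESC. The log2 change was 2.68 ± 0.41 (adjusted p = 0.0298), with a 95% interval of 1.75 to 3.61, and higher in 3 of 3 lines. It passed with the floor of 4, where it was the 1 of 8 members called (adjusted p = 0.0147), and also with the block, the filter on dim genes, quantile normalisation, the mean of its probe sets and array weights. The call was lost without the FGF3+10 array of Shef3 (adjusted p = 0.0635), the DFNB array of Shef3 (0.0674), the hESC array of Shef3 (0.0872), H14 (0.0699) or Shef1 (0.0780), or all arrays of Shef3 (0.261), H14 (0.147) or Shef1 (0.101).

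Against hESC in each medium alone, none of the 8 passed, although the same 5 members did not overlap (all higher), against 5.68% of all genes with FGFs and 7.8% in DFNB. With FGF3 and FGF10, 0.177% of all genes were called (35 of 19775), and in DFNB alone 0.202% (40 of 19775). The smallest adjusted p was that of DACH1 with FGFs, 0.0809 at a log2 change of 2.65 ± 0.47, and also in DFNB, 0.0640 at 2.72 ± 0.47. EYA2 had changes of 4.22 ± 0.80 with FGFs (adjusted p = 0.0923) and 4.55 ± 0.80 in DFNB (0.0653). In DFNB it passed with the block (adjusted p = 0.0417), where 0.956% of all genes were called. SIX2 passed with FGFs when Shef1 was left out, with a change of 6.54 (adjusted p = 0.0427). At an unadjusted p below 0.05, 5 of 8 members were higher in either medium, against 4.52% of all genes with FGFs and 6.11% in DFNB. These comparisons and the pooled one share the hESC arrays, so they are not independent.

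**Figure D2:**
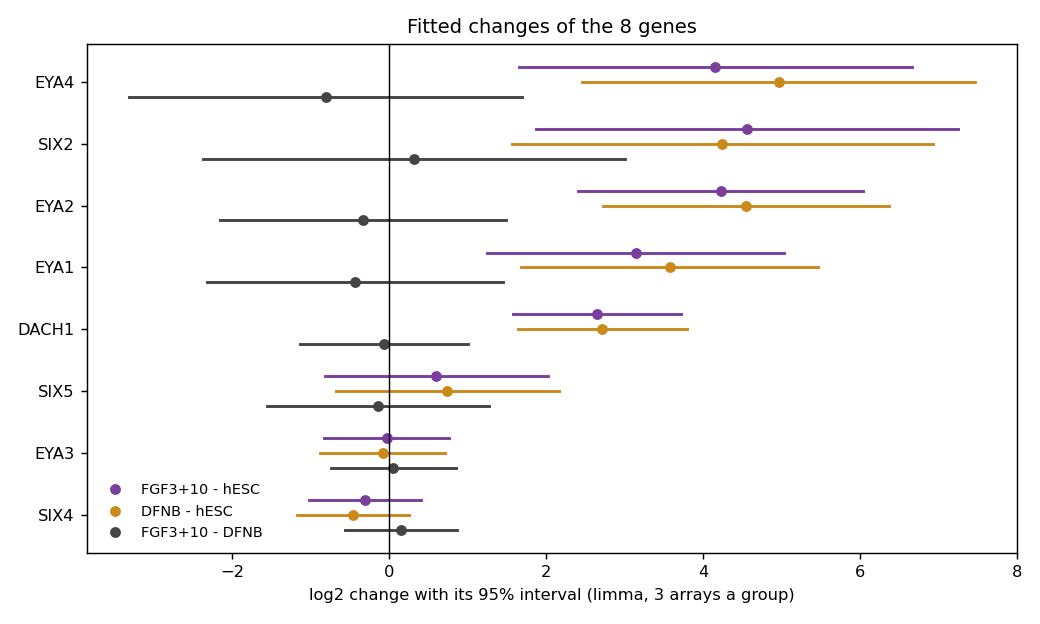
Fitted log2 changes (x axis) with 95% intervals for the 8 genes (y axis) in FGF3+10 minus hESC, DFNB minus hESC and FGF3+10 minus DFNB, 3 arrays a group. For EYA4, SIX2, EYA2, EYA1 and DACH1 the intervals against hESC lie above 0, and the intervals between the media include 0 for all 8 genes.

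The effect of the added FGFs was asked by setting FGF3+10 cells beside DFNB cells, both at day 14. None of the 8 genes passed, the groups overlapped for all 8 (1.46% of all genes did not overlap and were higher, 1.72% lower), and no gene of the whole table was called by limma (0% of 19775). At an unadjusted p below 0.05, 0 of the 8 members passed, against 143 genes higher (0.723%) and 157 lower. The differences ran from -0.81 for EYA4 to 0.31 for SIX2. The 95% interval was -1.14 to 1.01 for DACH1, -0.56 to 0.87 for SIX4 and -0.74 to 0.85 for EYA3. It was wider for EYA1 (-2.32 to 1.46), EYA2 (-2.15 to 1.49), SIX5 (-1.56 to 1.27), EYA4 (-3.31 to 1.69) and SIX2 (-2.37 to 2.998). Differences within each gene's interval are not excluded by these arrays. Within lines the sign varied: with FGFs, EYA2 was 1.01 higher in H14 and lower in Shef3 (-1.43) and Shef1 (-0.56). EYA1 likewise differed by 0.62 in H14, -0.72 in Shef3 and -1.20 in Shef1. EYA4 was lower with FGFs in 3 of 3 lines, with differences of -1.80 in H14, -0.40 in Shef3 and -0.22 in Shef1.

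For each gene the order of the 3 groups can be given with the tests above. DFNB had the highest mean for EYA1, EYA2, EYA4, SIX5 and DACH1, FGF3+10 for SIX2, and hESC for EYA3 and SIX4. The 2 day 14 groups overlapped for every member. For EYA1, EYA2, EYA4, SIX2 and DACH1 hESC was the lowest group, at 2.29 ± 0.27, 1.05 ± 0.21, 0.11 ± 2.00, 1.85 ± 1.13 and 5.39 ± 0.46 (SD, n = 3 each).

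**Figure D3:**
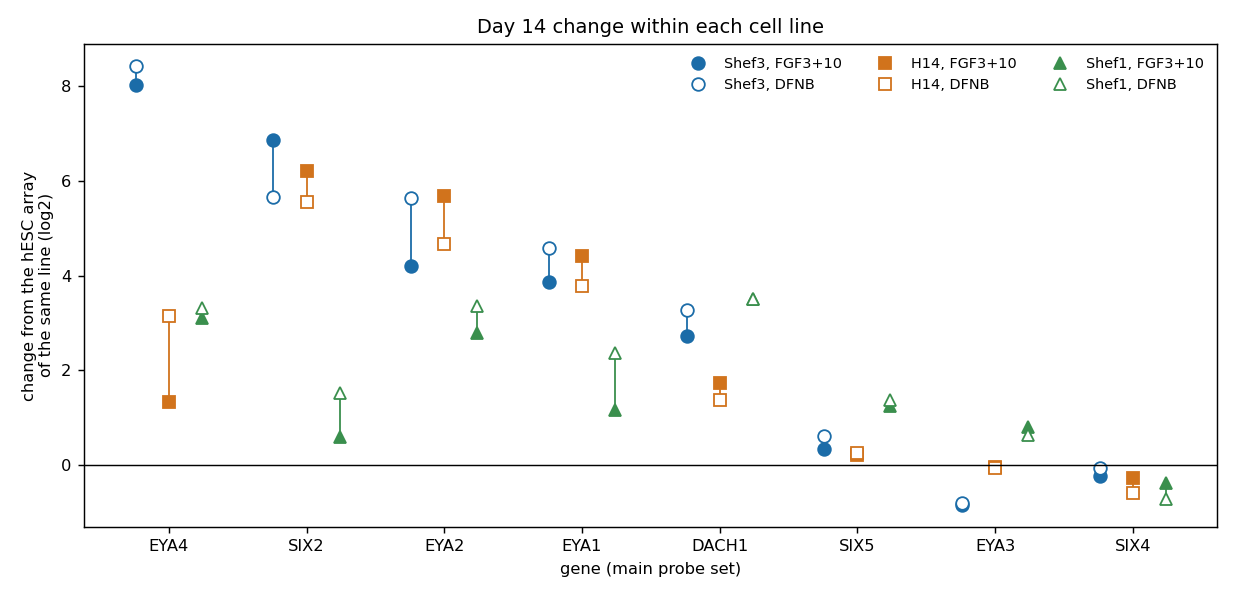
Change of each gene's main probe set from the hESC array of the same cell line (y axis, log2), with filled symbols for FGF3+10 and open symbols for DFNB, joined within a line; in Shef1 the 2 DACH1 symbols coincide at 3.51. EYA4, SIX2, EYA2, EYA1 and DACH1 lie above 0 in all lines and both media, SIX2 and EYA1 lie lowest in Shef1, and EYA3 lies below 0 in Shef3 and above it in Shef1.

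The 5 genes without overlap differed in which line had the largest change. Averaged over both media, SIX2 was higher by 6.27 in Shef3 and 5.88 in H14 but by 1.05 in Shef1. EYA1 was higher by 4.21, 4.10 and 1.76, and EYA2 by 4.92, 5.17 and 3.07, again with the lowest value in Shef1. For EYA4 the change was 8.23 (Shef3), 3.21 (Shef1) and 2.24 (H14). DACH1 had another order, with 3.51 in Shef1, 2.995 in Shef3 and 1.54 in H14. The hESC values behind the changes of SIX2, EYA1, EYA2 and EYA4 were all below 4. With values below 4 set to 4, SIX2 differed by 3.16 in Shef3, 3.44 in H14 and 0.31 in Shef1, and Shef3 and H14 changed places for SIX2, EYA1 (2.21 and 2.60) and EYA2 (2.20 and 2.05). Shef1 was still the lowest of the lines for these genes, at 0.37 for EYA1 and 0.16 for EYA2. With the same floor EYA4 differed by 2.03 in Shef3, 0.29 in H14 and 0.28 in Shef1. A test of line by day, added after the data were seen, pooled both media, so that its error came from the FGF3+10 and DFNB arrays of a line (3 residual degrees of freedom). None of the 8 genes passed and 0% of all genes did (limma F test, 0 of 19775), with 3841 genes at an unadjusted p below 0.05. Among those were SIX2, EYA4, EYA3 and DACH1 (adjusted p = 0.203, 0.203, 0.203 and 0.225). Differences in level between lines were tested with group in the model: none of the 8 genes passed, against 0.46% of all genes. SIX5 had the smallest adjusted p, 0.105, and its means over 3 arrays were 5.33 in Shef1, 6.67 in Shef3 and 6.75 in H14. It passed when the fit held only genes averaging at least 4.

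Marker lists of other cell types were set beside these values. The mean level of 10 mesenchyme genes was 10.01, 7.80 and 6.25 in FGF3+10 cells and 10.59, 9.63 and 8.06 in DFNB cells, against 7.26, 7.84 and 8.29 in hESC. Shef1 was its lowest line at day 14, as it was for EYA1, EYA2 and SIX2, and both day 14 values of Shef1 stood below its hESC value. None of the 10 passed, and the median change at day 14 was 0.54. It was -0.10 with FGFs and 1.15 in DFNB. All 10 genes had a lower mean in FGF3+10 than in DFNB cells (median difference -1.12), as did 9789 of all 19775 genes. None of the 10 reached an unadjusted p below 0.05 (limma), and in Shef3 PRRX1, PDGFRA and PDGFRB read higher with FGFs. MGP and DCN had the largest day 14 changes, 3.65 (adjusted p = 0.562) and 2.17 (0.280). The mean level of 9 pluripotency genes was 2.52, 8.13 and 7.91 in FGF3+10 cells and 2.09, 6.38 and 7.71 in DFNB cells, against 10.25, 9.83 and 8.55 in hESC. So H14 and Shef1 had higher levels than Shef3 at day 14. ZFP42 lowers the mean of Shef1, where it read -0.92 with FGFs, -0.81 in DFNB and -0.48 in hESC. In the other lines it read 6.10 to 10.47. The remaining pluripotency genes all read higher in Shef1 than in H14 at day 14, except GDF3 with FGFs. SIX2, EYA1 and EYA2 read high in both Shef3 and H14 at day 14 and lowest in Shef1. The part of these lists in the members' values was not tested.

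SIX2 and EYA1 also mark kidney progenitors, and EYA and SIX-family genes act in muscle. Of 9 skeletal muscle genes, MYF5, MYOD1, MYOG, MYF6, DES and MYH3 were below 4 on all 9 arrays, and ACTA1, skeletal alpha-actin, was the 1 called, with a change of -3.45 (adjusted p = 0.0368). Of 7 nephron progenitor genes, WT1 and HOXD11 were below 4 on all arrays and none passed. CITED1 differed by 3.03 (adjusted p = 0.102, blocked 0.0313) and MEOX1 by 1.95 (0.158). CITED1 was below 4 on 7 of the 9 arrays and MEOX1 on 4. Over all genes 1.4% were called at day 14, and 3.09% with the block.

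The other members of the network were read from a list of PAX, SIX-family and DACH relatives with TLE and SKI co-repressors. Of 14 measured, 2 rose and none fell at day 14, with a median change of 1.02. Over all genes 0.759% were called higher and the median change was -0.19. The 2 that rose were SIX6 and SIX3, eye field relatives of SIX2, with log2 changes of 6.75 ± 0.92 and 6.58 ± 1.24 (adjusted p = 0.0244 and 0.0472). All their hESC values were dim, as were their DFNB values in H14 (1.20 for SIX6 and 3.37 for SIX3). The sizes of these 2 changes are therefore uncertain. PAX6 had a change of 4.19 (adjusted p = 0.0604), DACH2 of 1.03 (0.426) and TLE4 of 1.02 (0.109). SKI and TLE1 had changes of -0.18 and -0.50, and neither passed.

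Of 18 measured preplacodal and otic regulators, 3 rose and none fell, against 0.759% of all genes called higher. Their median was 1.10, against -0.19 over all genes. With the block, where 3.09% of all genes were called in either direction, 4 rose. The one gained was MSX2, a homeobox gene, at 2.49 (adjusted p = 0.115; blocked 0.0111). TFAP2A, an early factor of the non-neural ectoderm, read 8.71, 10.10 and 8.51 in FGF3+10 cells and 9.06, 9.40 and 8.43 in DFNB cells, against 6.06, 7.43 and 5.79 in hESC, a log2 change of 2.61 ± 0.50 (adjusted p = 0.0481). DLX5 and DLX6, homeobox genes of the preplacodal border, rose by 3.31 ± 0.61 (adjusted p = 0.0447) and 3.41 ± 0.56 (0.0343) from dim hESC values. DLX6 averaged 3.80 at day 14 and was below 4 on 7 of the 9 arrays, and DLX5 was below 4 on 5. The sizes of both changes are therefore uncertain. PAX2 and PAX8, which act in the otic placode, had changes of 1.53 (adjusted p = 0.361) and -0.20 (0.803), and GATA3 of 1.47 (0.209). FOXI1, GBX2 and TBX1 were below 4 on all arrays. Of 6 measured genes reported as targets of SIX-family factors none passed, with a median of -0.21; the largest changes were 1.66 for IGFBP5 (adjusted p = 0.291) and -1.60 for CCNA1 (0.136).

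Lists of the tissues where these genes also act gave further values at day 14. Over all genes 0.759% were called higher, 3.09% were called in either direction with the block, and the median change was -0.19. Of 11 lens genes 4 rose, by 10.09 for FOXE3 (adjusted p = 0.00808), 6.36 for CRYAB, a lens crystallin (0.0464), 4.75 for PROX1 (0.0264) and 1.63 for MAF (0.0405), with a median of 2.87. All hESC values of FOXE3 and PROX1 and 2 of 3 of CRYAB were below 4, so the sizes of these changes are uncertain. PITX3 and MIP were below 4 on all arrays, and 2 of the 11 lens genes had negative changes. Of 10 eye field and retina genes SIX6 and SIX3 rose, with a median of 2.76, and LHX2, at 5.82 from dim hESC values, passed with the block (adjusted p = 0.0510; blocked 0.0465). In the eye list VSX1 and CRX were below 4 on all arrays, and 3 of the 10 genes had negative changes. Of 9 neural progenitor genes NR2F1 rose by 2.32 (adjusted p = 0.0380), with a median of 1.36. None of 9 neural crest genes passed (2 with the block), with a median of 1.17, where TFAP2B differed by 3.37 (adjusted p = 0.105; blocked 0.0425), SOX9 by 1.91 (0.0550; blocked 0.0438) and FOXD3 by -3.48 (0.306). None of 8 placodal and sensory neuron genes passed, with a median of 0.61, and NEUROG1 and NEUROG2, the early factors of placodal neurons, were below 4 on all arrays. ISL1 had a change of 3.40 (adjusted p = 0.181) and NTRK2 of 1.67 (0.398). None of 7 endoderm genes passed, with a median of -3.05 (CER1 -6.69, adjusted p = 0.140, and FOXA2 -5.25, 0.0809). With the block 2 passed, GATA4 at -3.05 and AFP at -1.76 (blocked adjusted p = 0.0230 and 0.0438). No pluripotency gene passed, with a median of -2.71 (NANOG -8.18, adjusted p = 0.405, and PRDM14 -6.51, 0.286). The falls of NANOG and PRDM14 were largest in Shef3. There NANOG read -7.62 with FGFs and -10.17 in DFNB, against 11.10 in hESC. In H14 and Shef1 it read 6.33 to 9.64 at day 14, against 10.21 and 10.73. PRDM14 read -4.18 and -5.75 in Shef3 at day 14, against 2.97 to 6.52 in H14 and Shef1.

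**Figure D4:**
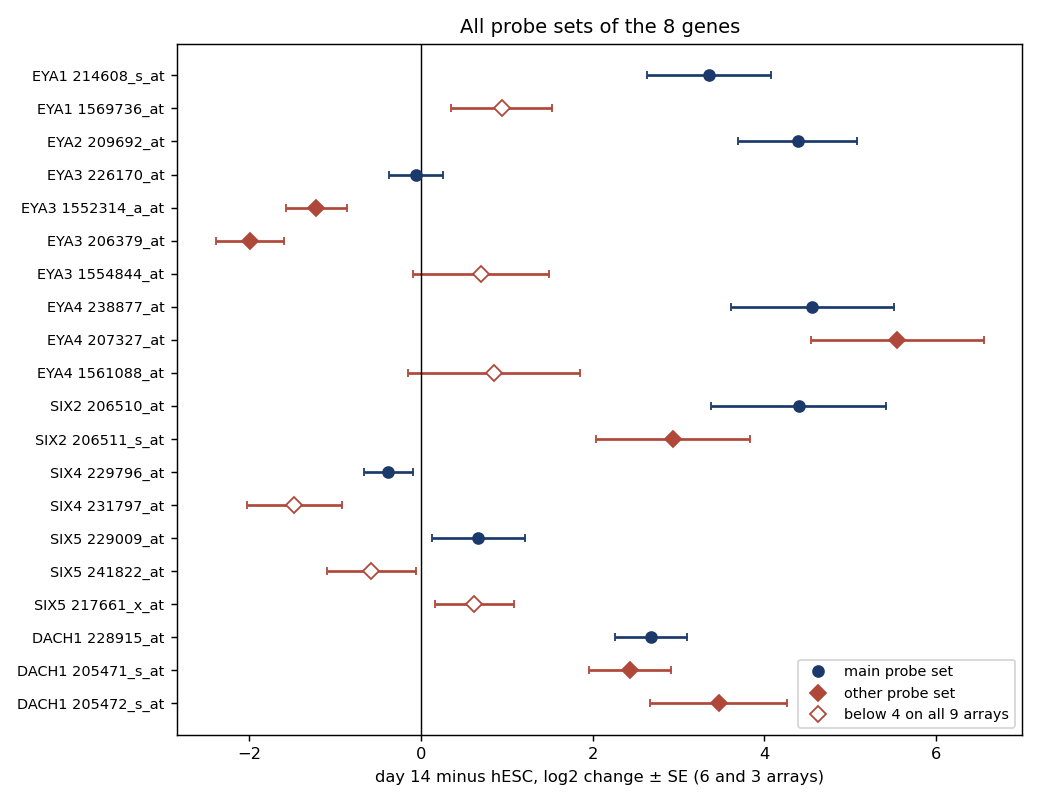
Day 14 minus hESC log2 change ± SE (x axis; 6 and 3 arrays) of all 20 probe sets of the 8 genes (y axis), with circles for main probe sets, diamonds for others and open symbols for those below 4 on all 9 arrays. The 3 DACH1 probe sets and both of SIX2 lie above 0 together, whereas the 4 EYA3 probe sets lie on both sides of 0.

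Other probe sets of the same genes were fitted over all 41091 probe sets, where 0.689% were called at day 14. All 3 DACH1 probe sets had day 14 values above every hESC value, with log2 changes of 2.68 ± 0.42 (228915_at), 2.43 ± 0.48 (205471_s_at) and 3.47 ± 0.80 (205472_s_at). Of these 228915_at passed (adjusted p = 0.0373), and so did the EYA2 probe set (0.0387). The second SIX2 probe set, 206511_s_at, and the second EYA4 one, 207327_at, had changes of 2.94 ± 0.90 and 5.55 ± 1.01 (adjusted p = 0.174 and 0.0559), also without overlap. So 9 of 20 probe sets did not overlap upwards, against 4.06% of all, and 2 downwards, against 6.59%. The other probe sets of EYA1, SIX4 and SIX5 and 1 each of EYA3 and EYA4 were below 4 on all 9 arrays.

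Both probe sets that read lower at day 14 without overlap belong to EYA3. The probe set 206379_at read 1.55, 2.18 and 0.66 in FGF3+10 cells and 1.98, 2.49 and 1.63 in DFNB cells, against 3.75, 4.10 and 3.39 in hESC, a log2 change of -2.00 ± 0.40 (adjusted p = 0.0665). The probe set 1552314_a_at averaged 4.30 ± 0.66 in FGF3+10 cells and 4.35 ± 0.20 in DFNB cells, against 5.54 ± 0.39 in hESC (SD, n = 3 each), a change of -1.22 ± 0.35 (adjusted p = 0.157). Neither passed, and 8 of the 9 values of 206379_at were dim. Within an array, 206379_at minus the main probe set 226170_at was -7.79 to -5.47 on the day 14 arrays and -4.82 to -3.93 on the hESC arrays. This difference was chosen after its values were seen and was not tested; it shows unequal change of the 2 probe sets, not which of them follows the gene.

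For each gene the 3 genes with the most similar pattern were ranked by Pearson's r over the 9 arrays, among 13405 other genes that reached 4 on at least 1 array. The arrays fall into day 0 and day 14 sets, and r over so few arrays is given as a description. EYA1 was most like ATP6V0E2, HEY1 and ADGRG1 (r = 0.976, 0.976 and 0.975) and EYA2 most like ADAMTS18, ZNF436 and HEY1 (0.984, 0.982 and 0.981). SIX2 was most like ROBO2, ADGRG1 and PDGFC (0.975, 0.965 and 0.964). EYA4 was most like RECK, PRDM16 and PARP6 (0.983, 0.979 and 0.975), and DACH1 most like RALYL, NOVA1 and MAB21L2 (0.980, 0.979 and 0.976). For EYA3 these were CLSPN, SCAF8 and USP31 (0.986, 0.980 and 0.974), for SIX4 CFAP20DC, RNF135 and CNTN1 (0.968, 0.967 and 0.961) and for SIX5 UNC119, RERE and TEAD2 (0.992, 0.984 and 0.982). HEY1 appears for both EYA1 and EYA2, and ADGRG1 for both EYA1 and SIX2. Between members, EYA1 and EYA2 had r = 0.975 and EYA1 and SIX2 0.959, whereas EYA3 and DACH1 had 0.0058.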

How the data were processed

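Total RNA, 200 ng per sample, was amplified from the 3' end and labelled with biotin for Affymetrix arrays, per the labels' protocols. The deposited log2 values (base assumed) had been brought by the authors to a common median on every array; for the software, probe set summary and background step, the sources used here say nothing. Symbols came from the platform annotation and were updated through Entrez identifiers (41037 of 41091 matched, RefSeq GRCh38.p14). Of 54675 probe sets, 62 controls, 1801 with several symbols and 11721 without a gene in the table used were left out.

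Linear models were fitted across all genes (limma 3.58.1, R 4.3.3; lmFit and eBayes, 1 mean per group, 1 shared spread over 9 arrays, no block), with Benjamini-Hochberg adjustment over all 19775 genes and calls at an adjusted p below 0.05. Cell lines were compared by a limma F test with group in the model. The fits were tested on simulated data with independent noise on each array, which did not cover the pairing by line. The same line occurs in each group, so the labels pair the arrays by line: within lines, deviations from group means correlated at 0.0861 to 0.713. Replicates 1, 2 and 3 are Shef3, H14 and Shef1. Blocked values are given where they change the call of a member, or of a listed gene at day 14. From lists other than the 8 members, the called genes are named (up to 4), or else the 2 with the largest change; genes named beyond that (PAX2, PAX6, PAX8, GATA3, DACH2, TLE1, TLE4, SKI, MSX2, LHX2, SOX9, GATA4, AFP) were chosen after their values were seen. The members and lists were chosen with earlier results of these data known. Alternatives were the block, a floor of 4, a minimum mean of 4, quantile normalisation, the mean of probe sets, array weights, and leaving out arrays or lines.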

Additional observations from a re-analysis of the deposited data

Results flagged for a closer look

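EYA3 (main probe set) had changes of opposite sign in different cell lines. Its day 14 change was 0.81 with FGFs and 0.62 in DFNB in Shef1, against -0.85 and -0.81 in Shef3, a difference of 1.54 between the lines' averages. Against H14, where the changes were -0.05 and -0.06, the difference was 0.77. Each line has 1 hESC array that both of its changes share, and a limma test of line by day over 3 residual degrees of freedom, added after the data were seen, gave an adjusted p of 0.203 for EYA3 over the lines and 0.123 for Shef1 against Shef3. Shef1 against H14 was not tested.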

How the results depend on the processing

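Under a replicate block for cell line, the genes called numbered 115 (FGF3+10 against hESC), 189 (DFNB against hESC; 1 member, EYA2) and 612 (day 14; EYA1 joined EYA2 and DACH1). With values below 4 set to 4, where genes below 4 on all arrays drop out, the members' median change was 1.01, 1.33 and 1.17, DACH1 was the 1 member called in each, and 123, 183 and 479 genes were called. With genes averaging at least 4 only, DACH1 was the 1 member called in each medium, with 66 and 122 genes. With array weights, whose estimation stopped before convergence, 3, 5 and 5 members and 284, 1612 and 1408 genes were called. Between cell lines 468 genes were called with the floor, 491 (1 member, SIX5) without dim genes, 59 after quantile normalisation, 217 with mean probe sets and 4475 (3 members) with array weights.

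Leaving out an array or a line gave 0 to 1 members and 0 to 32 genes with FGFs, 0 to 72 genes in DFNB, and 0 to 4 members and 1 to 238 genes at day 14. The members' median between the media then ran from -0.46 to 0.12. EYA3 ran from -0.45 to 0.38 with FGFs, -0.44 to 0.28 in DFNB and -0.44 to 0.33 at day 14, and SIX5 from -0.074 to 0.997 with FGFs and -0.0016 to 1.07 at day 14. Between the media EYA1 ran from -1.17 to 0.52, EYA2 from -0.997 to 0.43, EYA3 from -0.15 to 0.22, SIX2 from -0.42 to 1.67, SIX5 from -0.50 to 0.20 and DACH1 from -0.52 to 0.23.

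After quantile normalisation EYA3 turned to 0.13 with FGFs, 0.051 in DFNB and 0.090 at day 14. With mean probe sets SIX5 turned to -0.075 in DFNB, and between the media EYA1 turned to 0.33, EYA3 to -0.41, SIX4 to -0.44, SIX5 to 0.63 and DACH1 to 0.041. The cause was not tested. DACH1 at day 14 was called in 10 of 18 alternatives (adjusted p 0.0126 to 0.261) and EYA2 in 6 of 17 (0.0107 to 0.307), higher in each. The number of arrays, and for EYA1, EYA2, EYA4 and SIX2 the dim hESC values, limit the precision.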
